A study of Mus musculus with 2 samples.

Results

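Interferon-stimulated genes are the transcripts that cells switch on after an interferon binds its receptor, and 31 of them are described here across both arrays of a mouse liver study. The members were chosen by gene symbol: 21 are known mainly as targets of the type I interferons (alpha and beta) and 10 mainly as targets of interferon gamma, although many respond to both. Of the 31, 26 had a probe set whose annotation gives 1 symbol, out of 12393 such genes in all. Isg15 and Gbp4 were annotated only on probe sets that list several symbols and are given no value, and Ifi44, Ifi27 and Ddx58 had no probe set with their symbol here. Each gene was read from its brightest probe set.

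The liver RNA came from mice without apolipoprotein E, which are prone to hypercholesterolaemia and atherosclerosis, and all animals were on a high-fat diet. The array titled orujo, called the orujo array below, represents a diet with added unsaponifiable fraction of olive oil, which holds sterols, terpenes and other components left after the fatty acids are removed. The array titled olive represents a diet with added olive oil itself. Both groups carry the apolipoprotein E deficiency and share the high-fat background. The labels used here do not state age, sex, further strain background or how many animals lie behind each array. The series asks how kinds of olive oil in the diet relate to hepatic gene expression.

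Type I interferons signal through a receptor made of IFNAR1 and IFNAR2, and interferon gamma through IFNGR1 and IFNGR2. Janus kinases bound to these receptors phosphorylate STAT factors. In the type I pathway a complex that contains STAT2 and IRF9 binds the interferon-stimulated response element (ISRE), while interferon gamma acts mainly through STAT dimers on the gamma-activated site (GAS). In the liver, Kupffer cells, endothelial cells and hepatocytes can all respond, and the induced proteins restrict viruses, destroy pathogen-holding vacuoles and load peptides for antigen presentation.

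Promoter windows from RefSeq (assembly GRCm38.p6) were searched for the elements these pathways use. The windows run from 250 bases before to 50 after a transcription start, and both strands were searched for the ISRE core, 2 copies of GAAA with 2 bases of any kind between them, and for the GAS core TTCNNNGAA, where N is any base. Overlapping matches were kept. The 150 bases before the start are printed for 6 members: the highest and lowest type I log2 ratio (Oas1a and Ifit1), the highest and lowest interferon gamma log2 ratio (Igtp and Irgm1), and Irf7 and Irf1, which encode interferon regulatory factors. Capitals mark the letters of a match, and every sequence reads 5′ to 3′ on the strand of its gene.
Oas1a, chr5:120907526-120907675, minus strand: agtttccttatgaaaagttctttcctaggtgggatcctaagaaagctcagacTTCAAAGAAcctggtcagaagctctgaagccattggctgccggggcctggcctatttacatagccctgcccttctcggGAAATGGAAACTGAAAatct
Irf7, chr7:141266425-141266574, minus strand: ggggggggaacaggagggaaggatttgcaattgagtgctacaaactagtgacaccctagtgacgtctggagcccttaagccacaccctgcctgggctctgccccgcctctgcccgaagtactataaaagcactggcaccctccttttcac
Ifit1, chr19:34640739-34640888, plus strand: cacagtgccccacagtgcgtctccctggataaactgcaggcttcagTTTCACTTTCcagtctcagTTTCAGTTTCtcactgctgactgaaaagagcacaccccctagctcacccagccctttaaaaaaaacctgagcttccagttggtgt
Igtp, chr11:58199406-58199555, plus strand: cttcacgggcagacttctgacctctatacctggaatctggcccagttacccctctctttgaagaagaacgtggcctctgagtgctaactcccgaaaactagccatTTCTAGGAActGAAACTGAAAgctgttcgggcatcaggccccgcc
Irgm1, chr11:48871421-48871570, minus strand: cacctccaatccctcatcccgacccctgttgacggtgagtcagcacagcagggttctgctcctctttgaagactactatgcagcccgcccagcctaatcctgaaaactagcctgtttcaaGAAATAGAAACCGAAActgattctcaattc
Irf1, chr11:53769864-53770013, plus strand, the first of 2 windows: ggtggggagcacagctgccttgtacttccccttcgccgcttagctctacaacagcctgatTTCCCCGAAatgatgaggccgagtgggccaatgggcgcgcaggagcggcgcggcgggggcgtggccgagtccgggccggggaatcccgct

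In Oas1a and Irgm1 the capitals at the 3′ end are 2 overlapping ISRE cores, and in Ifit1 the 2 cores are apart and on the opposite strand. The other capitals of Oas1a are a GAS core. Igtp holds a GAS core followed by an ISRE core, Irf1 holds a GAS core, and Irf7 holds neither string of letters in the printed bases. Over all members with a window, the ISRE core was found in 9 of 17 type I targets (52.9%) and 4 of 7 interferon gamma targets (57.1%), against 3.99% of 27025 genes and 3.44% of 32851 windows. The GAS core was found in 4 of 17 type I targets (23.5%) and 3 of 7 interferon gamma targets (42.9%), against 9.55% of genes and 8.30% of windows. These are letter matches, which differ from tested binding sites.

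The interferon-stimulated genes were split between higher and lower signal on the orujo array, by small amounts. Of the 26 genes with a probe set, 18 gave an intensity above the floor on both arrays and are called measured. The floor of 35.6 is the median of all scaled intensities and stands in for detection calls. The log2 ratio is orujo over olive. Among the 18 measured members, 8 ratios were positive and 10 negative, with a median of −0.08, against a median of −0.02 over all 6640 measured genes, of which 47.5% had a positive ratio. No measured member reached 2-fold (0 of 18), where 2.33% of all measured genes did, 1.36% higher and 0.979% lower. The only member past 1.5-fold was Ifit1, which was lower; 11.1% of all measured genes passed 1.5-fold in either direction, 5.57% higher and 5.56% lower. A higher floor, at the 75th percentile, left 5 members with a median of 0.041. There was 1 array per diet, so no test between the diets could be made and no value below has an error between animals.

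The SD of the members' log2 ratios was 0.31, against 0.42 over all measured genes. The only repeated measurement was that of different probe sets of a gene: over the 1453 genes with exactly 2 measured probe sets, the SD of the difference between their log2 ratios was 0.44, which puts the measurement noise of 1 probe set at 0.31. Probe sets of a gene are read from the same hybridisation, so this noise holds no variation between animals. Of the 18 measured members, 14 had a mean signal under 142.5, which is 4 times the floor. In that range the noise of 1 probe set was 0.33.

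**Figure D1:**
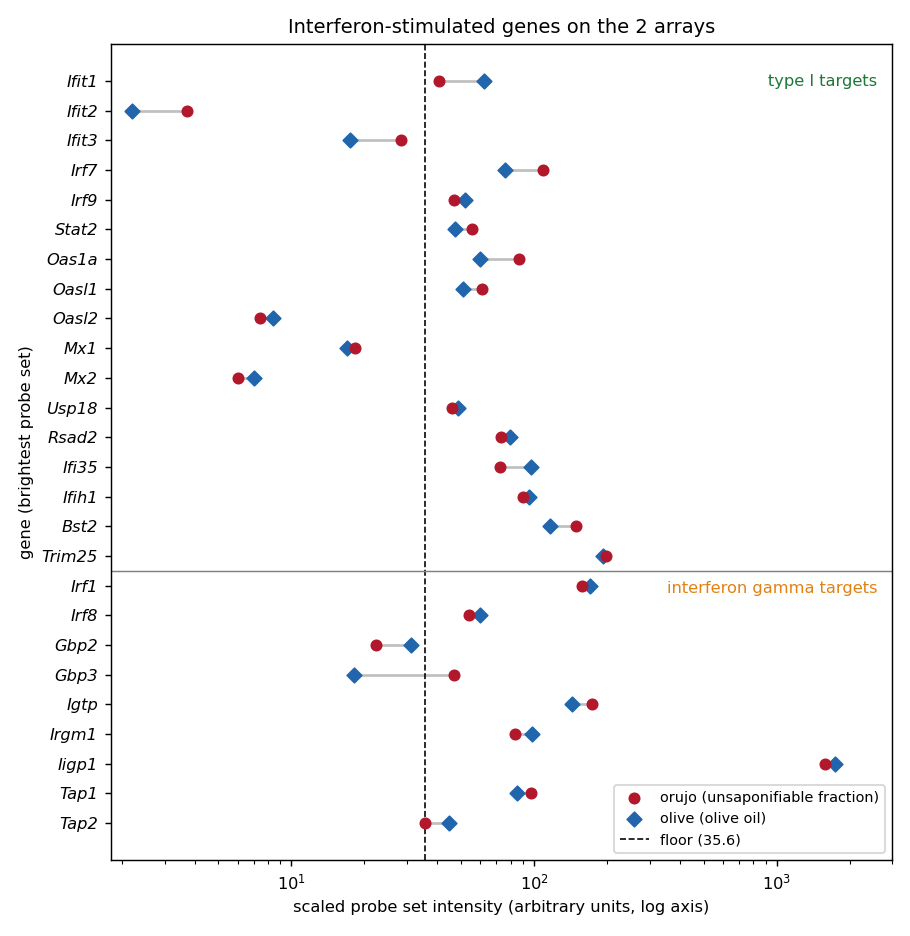
Scaled intensity (arbitrary units, log axis) of the 26 interferon-stimulated genes with a probe set of 1 symbol, each from its brightest probe set, on the orujo array (red circles) and the olive array (blue diamonds), with 1 array per diet. The marks of most genes lie close together, 18 genes lie right of the floor of 35.6 (dashed line) on both arrays, and Gbp3 crosses it.

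The transcription factors of the pathway did not point one way. Irf7, which encodes the factor that amplifies type I interferon production, had an intensity of 109 on the orujo array and 76.2 on the olive array. That is a 1.43-fold higher signal (log2 ratio 0.52), and 92.4% of measured genes had a lower ratio. The noise of 1 probe set in its signal range was 0.33, which is 1 SD, and Irf7 was read by 1 probe set only. Other factors of the pathway had smaller ratios. Stat2, a subunit of the ISRE-binding complex, had 55.6 on the orujo array and 47.2 on the olive array, 1.18-fold higher. Its other probe set had the opposite order, with 22.8 on the orujo array, below the floor, and 38.4 on the olive array. Irf9, the DNA-binding subunit of the same complex, had 46.6 on the orujo array and 52.0 on the olive array (log2 ratio −0.16). Both ratios were within the noise of 1 probe set, and the probe sets of Stat2 disagreed, so no direction can be given for Stat2. Irf1, which encodes an early interferon gamma-induced activator, had 158 on the orujo array and 171 on the olive array (log2 ratio −0.11). Irf8, a regulator of macrophage and dendritic cell genes, had 54.1 on the orujo array and 59.9 on the olive array, and its probe sets gave −0.15 and −0.24 on the log2 scale. Both probe sets of Irf8 were slightly lower on the orujo array.

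Among the antiviral effectors, Oas1a had the highest ratio of the measured members and Ifit1 the lowest. Oas1a, which encodes an oligoadenylate synthetase that activates RNA degradation, had 86.6 on the orujo array and 59.7 on the olive array, 1.45-fold higher (log2 ratio 0.54). Of all measured genes, 93.0% lay below it. It too was read by 1 probe set only, in the signal range where the noise was 0.33. Oasl1, an OAS-like protein, had 61.1 on the orujo array and 50.9 on the olive array, 1.20-fold higher (log2 ratio 0.26, within the noise of 1 probe set). Its neighbour on chromosome 5, Oasl2, lay below the floor on both arrays, at 7.41 on the orujo array and 8.39 on the olive array. Ifit1, whose protein binds foreign RNA that lacks normal cap methylation, had 40.5 on the orujo array and 62.2 on the olive array, a 1.54-fold lower signal (log2 ratio −0.62). Of all measured genes, 4.7% lay below it, and its orujo signal was close to the floor. Its ratio did not reach 1.5-fold under quantile normalization (−0.58), loess (−0.57) or log2 of value plus floor (−0.36). The related genes on chromosome 19 were both below the floor and in the opposite order: Ifit3 had 28.4 on the orujo array and 17.5 on the olive array, a log2 ratio of 0.70 with the floor at the 25th percentile. Ifit2 had 3.70 on the orujo array and 2.20 on the olive array. Ratios of genes below the main floor on both arrays are not counted.

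Rsad2, which encodes the antiviral enzyme viperin, was read by 3 probe sets that disagreed. The brightest had 73.4 on the orujo array and 79.4 on the olive array (log2 ratio −0.11). A second had 54.2 on the orujo array and 30.9 on the olive array, and the last had 23.4 on the orujo array and 41.6 on the olive array. These lay above the floor on opposite arrays, so no direction can be given for Rsad2. The GTPase genes Mx1 and Mx2, whose proteins block viral replication, were below the floor on both arrays, with Mx1 at 18.2 on the orujo array and 16.9 on the olive array. Mx2 had 6.01 on the orujo array and 6.99 on the olive array. Both genes are classic markers of type I interferon exposure, and neither gave a level that could be compared here.

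The remaining type I targets spanned a similar range around 0. Bst2, which encodes tetherin, a protein that holds budding virions at the cell surface, had 149 on the orujo array and 117 on the olive array, 1.27-fold higher. Ifi35, a leucine zipper protein gene, had 72.6 on the orujo array and 97.5 on the olive array, 1.34-fold lower (log2 ratio −0.43). These ratios run in opposite directions. Both are larger than the noise of 1 probe set, but that noise is 1 SD, which ratios made of noise alone often pass. The log2 ratio of Bst2 was 0.35, close to the noise of 0.33 in its signal range. Usp18, which removes ISG15 from proteins and dampens receptor signalling, had 46.0 on the orujo array and 48.6 on the olive array. Ifih1, the double-stranded RNA sensor MDA5, had 90.2 on the orujo array and 95.1 on the olive array. Both had a log2 ratio of −0.08, well within that noise. Trim25, a ubiquitin ligase of RNA sensing, had 198 on the orujo array and 192 on the olive array in a probe set marked as matching more than 1 transcript. Its 3 probe sets all gave small positive log2 ratios, of 0.04, 0.14 and 0.21.

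Over the 12 measured type I targets, 6 ratios were positive and 6 negative, and the median was −0.02, equal to that of all measured genes to 2 decimals. Over the 6 measured interferon gamma targets, 2 were positive and 4 negative, with a median of −0.12. The medians differed by −0.10, interferon gamma targets minus type I targets. Type I ratios ranged from −0.62 to 0.54, and interferon gamma ratios from −0.23 to 0.26 over the measured genes. Gbp3 and Tap2, the interferon gamma targets above the floor on 1 array, have bounds of 0.40 and −0.33, beyond that range on either side. The difference of the medians has no test, with 1 array per diet. It was −0.31 over the 5 members above the higher floor, 2 type I and 3 interferon gamma targets.

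The interferon gamma targets include the GTPases that attack intracellular vacuoles. Igtp, also called Irgm3, had 173 on the orujo array and 144 on the olive array, 1.20-fold higher. Irgm1, a regulatory GTPase of the same family, had 83.6 on the orujo array and 98.3 on the olive array, 1.18-fold lower. Iigp1, an effector GTPase of the family, had 1588 on the orujo array and 1739 on the olive array (log2 ratio −0.13). Its second probe set gave 350 on the orujo array and 331 on the olive array, a log2 ratio of 0.08. The family thus held both signs, and the probe sets of Iigp1 did too. The guanylate-binding protein genes gave no ratio. Gbp3 was above the floor on the orujo array only, with 46.9 there and 18.1 on the olive array, at least 1.32-fold higher. With the floor at the 25th percentile it was measured, with a log2 ratio of 1.38. Gbp2 was below the floor on both arrays, with 22.4 on the orujo array and 31.2 on the olive array.

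The peptide transporter of antigen presentation is a dimer of TAP1 and TAP2. Tap1 had 97.5 on the orujo array and 85.3 on the olive array, 1.14-fold higher, from the only 1 of its 4 probe sets above the floor. Tap2 lay at the floor with 35.6 on the orujo array and had 44.7 on the olive array, at least 1.25-fold lower. The log2 ratio of Tap1, 0.19, was within the noise of 1 probe set.

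**Figure D2:**
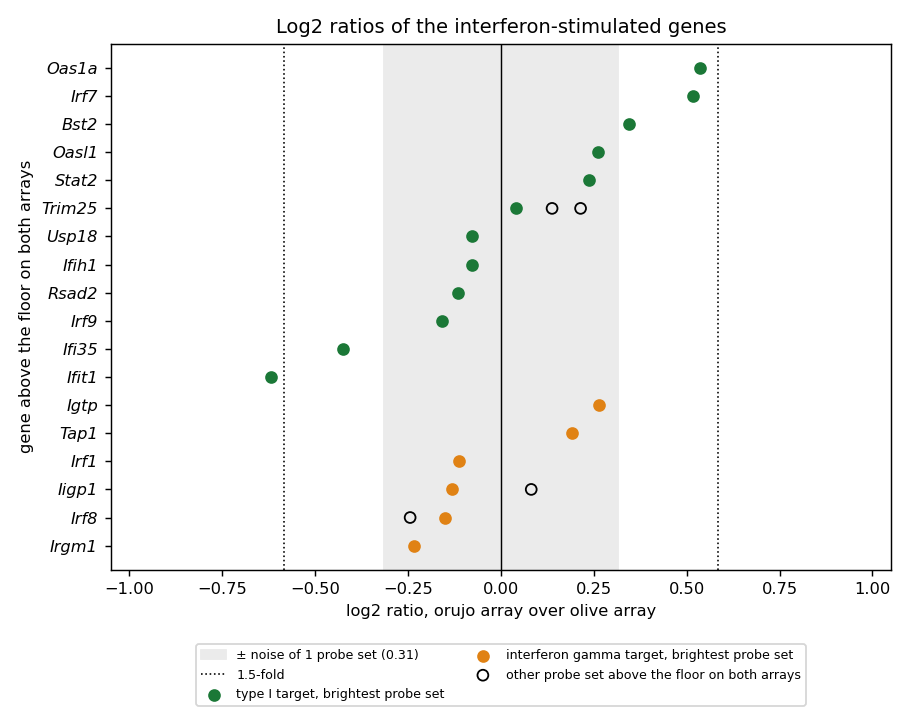
Log2 ratio (orujo over olive) of the 18 interferon-stimulated genes above the floor on both arrays, 12 type I targets (green) and 6 interferon gamma targets (orange), with other measured probe sets of the same gene as open circles. The grey band is the noise of 1 probe set (0.31) and the dotted lines mark 1.5-fold; Ifit1 is the only gene beyond them.

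**Figure D3:**
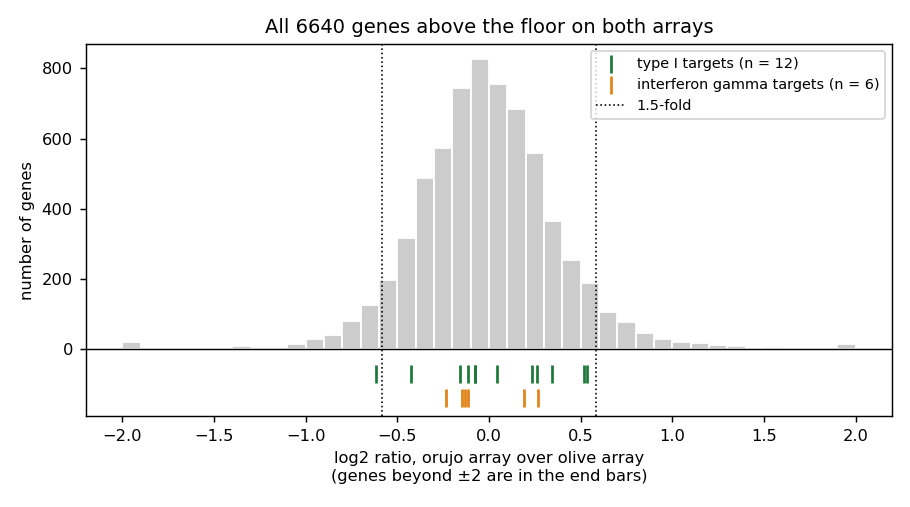
Histogram of the log2 ratio (orujo over olive) of all 6640 measured genes in number of genes, with the 12 type I targets (green) and 6 interferon gamma targets (orange) as ticks under it and dotted lines at 1.5-fold. The ticks fall on both sides of 0. The lowest, Ifit1, lies in the lower tail, where 4.7% of measured genes had a lower ratio.

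The members' ratios were also set beside the letters in their promoter windows. The 6 measured type I targets with the ISRE core had a median log2 ratio of 0.08, and the 5 with a window but no core had 0.04. For interferon gamma targets the medians were 0.02 over 2 genes with the ISRE core and −0.11 over 3 without it. With the GAS core, 3 type I targets had a median of 0.35, against −0.02 over 8 without it. For the interferon gamma targets these were −0.11 over 3 with the GAS core and −0.02 over 2 without it. Each of these medians rests on few genes. Over all genes, the 206 measured genes with an ISRE core had a median of −0.04, against −0.02 for the 5230 measured genes with a window and no core. For the GAS core the medians were −0.04 over 430 measured genes with it and −0.02 over 5006 without it. Oas1a and Ifit1, at opposite ends of the members, both hold 2 ISRE cores in the bases printed above. The interferon gamma targets at opposite ends, Igtp and Irgm1, carry 1 and 2 ISRE cores.

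Receptors and signalling genes of the pathway were also split between higher and lower. Of 18 measured genes in this list, 9 had positive and 9 negative ratios with a median of −0.01. At 1.5-fold, 1 gene was higher and 2 were lower, 3 of 18 in all, where 11.1% of all measured genes passed in either direction. Jak2, which encodes a kinase used by the interferon gamma receptor and by many cytokine and hormone receptors, had 126 on the orujo array and 58.9 on the olive array. It was 2.14-fold higher (log2 ratio 1.10), where 1.36% of all measured genes were at least 2-fold higher. Ifngr1, the ligand-binding chain of the interferon gamma receptor, had 116 on the orujo array and 211 on the olive array, 1.82-fold lower. Myd88, an adaptor of Toll-like receptors, had 83.4 on the orujo array and 130 on the olive array, 1.56-fold lower. Each of these had 1 probe set above the floor on both arrays, so none has a second measured ratio. Any dimmer probe sets of these genes were not examined. Counts rest on the brightest probe set, and 2 genes not counted, named after their values were seen, passed 1.5-fold in another probe set. Ptpn2 had a log2 ratio of 0.18 and 1.22 in the other, and Irf3 had 0.02 and −0.73.

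The other receptor chains and Janus kinases differed by less than 1.5-fold. Ifngr2, the partner chain of Ifngr1, had a log2 ratio of 0.05 (0.27 in its other probe set). Ifnar1 had 64.1 on the orujo array and 86.3 on the olive array (log2 ratio −0.43). Ifnar2, the other type I chain, had 636 on the orujo array and 518 on the olive array (log2 ratio 0.30). Jak1 had a log2 ratio of 0.16 and Tyk2 of 0.02. Among the rest, Tlr9, a DNA sensor, was at −0.35, and the transcription factor gene Irf2 and the STAT inhibitor gene Pias1 were at 0.33 and 0.30. Of the 10 interferon genes with a probe set, none was measured: 8 were below the floor on both arrays, and Ifna2 and Ifnz, named here after their values were seen, were above it on 1 array each, with bounds of 1.03-fold and 1.11-fold. Ifnb1 had 5.31 on the orujo array and 23.6 on the olive array, and Ifng had 12.7 on the orujo array and 8.09 on the olive array, all under the floor. Socs3, a feedback inhibitor of cytokine receptors that was also picked after its value was seen, was above the floor on the orujo array only, at least 1.44-fold higher. Ikbke, a kinase of interferon induction and likewise picked after its value was seen, was above it on the olive array only, at least 1.24-fold lower on the orujo array.

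Interferon-induced genes outside the members were split as well, apart from the Ifitm family. Of 29 measured genes, 12 had positive and 17 negative ratios, and the median was −0.08. Of the 29, 4 were at least 1.5-fold higher, against 5.57% of all measured genes, and they included all 3 measured Ifitm genes, which encode membrane proteins that block virus entry and lie next to each other on chromosome 7. Ifitm3 had 1913 on the orujo array and 975 on the olive array, 1.96-fold higher. Ifitm1 had 136 on the orujo array and 70.7 on the olive array, 1.93-fold higher. Ifitm2 had 2028 on the orujo array and 1169 on the olive array, 1.74-fold higher. These paralogs have related sequences, so their probe sets may not be independent readings. The last of the 4 was Ifi27l2a, an Ifi27 relative, with 63.4 on the orujo array and 37.6 on the olive array, 1.69-fold higher. None of the 29 was at least 1.5-fold lower, against 5.56% of all measured genes. The lowest were Uba7, the enzyme that activates ISG15, at −0.55 (0.46 in its other probe set), Epsti1 at −0.46, Parp14 at −0.44 and Irgm2 at −0.43. Of genes above the floor on 1 array, the chemokine gene Cxcl9 was above it on the orujo array, and Cxcl10, Oas2 and Sp110 on the olive array, all by bounds under 1.5-fold and named after their values were seen. Without the Ifitm genes, a choice made after seeing the data, the median was −0.11 over 26 genes.

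Genes of MHC class I and the immunoproteasome, which supply peptides to the transporter or receive them from it, leaned to positive ratios. All 14 genes with a probe set were measured, 9 were positive and 5 negative, and the median was 0.18. None passed 1.5-fold in its brightest probe set, but H2-K1 did in another, at 0.77. Of all measured genes, 47.5% were positive and 11.1% passed 1.5-fold. Under quantile normalization the median of the 14 was 0.12. The lean was not particular to this list: 7 of 10 measured hepatocyte markers and 9 of 13 measured macrophage and Kupffer cell markers were also positive, with medians of 0.18 and 0.28. The class I heavy chain genes H2-D1, H2-K1 and H2-Q10 had log2 ratios of 0.41, 0.39 and 0.35, the first 2 from probe sets marked as matching more than 1 transcript. Psmb8, an inducible proteasome subunit gene, was at 0.36, while Psmb10, another, was lowest at −0.36. H2-M3 was at −0.34, and the chaperone genes Pdia3 and Calr of the peptide-loading complex were at −0.31 and −0.29.

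**Figure D4:**
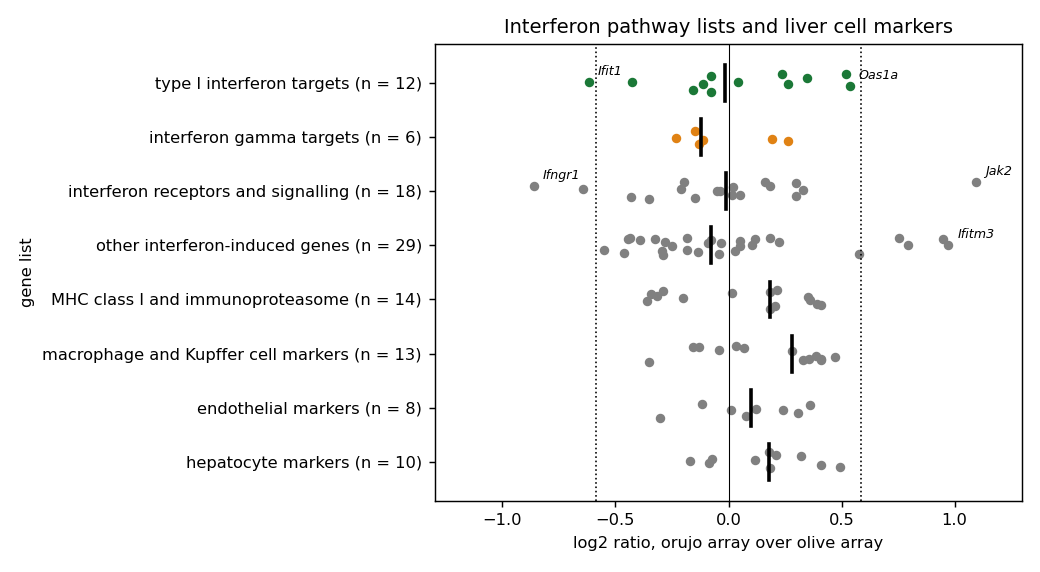
Log2 ratio (orujo over olive) of the measured genes of 8 lists, 1 point per gene, with a black bar at each list's median and dotted lines at 1.5-fold; vertical scatter within a row has no meaning. The type I and interferon gamma targets centre near 0, Jak2 and the Ifitm genes lie to the right, and Ifngr1 to the left.

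Cell types that carry or induce these genes were followed by their own markers. In bulk liver RNA, fewer cells of a type and less RNA per cell cannot be told apart. All 10 hepatocyte markers with a probe set were measured (median 0.18, from Cyp3a11 at −0.17 to Arg1 at 0.49), which checks the labelled tissue. Under quantile normalization that median was 0.047. Of 15 macrophage and Kupffer cell markers, 13 were measured, 9 of them with positive ratios (median 0.28, from Cd68 at −0.35 to C1qc at 0.47). Their summed signal was 4956 on the orujo array and 4388 on the olive array. The 8 measured endothelial markers had a median of 0.10, from Kdr at −0.30 to Plvap at 0.36. Lyve1 was above the floor on the orujo array only, at least 1.32-fold higher, and Tek on the olive array only, at least 1.07-fold lower. T and NK cells, the main sources of interferon gamma, left little signal: 12 of 15 markers were below the floor on both arrays, and the summed signal was 320 on the orujo array and 315 on the olive array. That sum includes the values under the floor, so it does not compare T and NK cell content. Klrk1 was at 0.40 and Prf1 at −0.34, and Cd3e was above the floor on the orujo array only, at least 1.29-fold higher. The B cell list had 2 measured markers, Ighm at 0.27 and Cd22 at 0.0029, and the dendritic list had Tcf4 at −0.03 and Bst2, which is also a member, at 0.35. The B cell marker Ms4a1 was above the floor on the orujo array only, at least 1.29-fold higher. The dendritic marker Itgax was above it on the olive array only, at least 1.17-fold lower. Neutrophil markers summed to 3695 on the orujo array and 715 on the olive array. Without Lcn2, which hepatocytes also make, the sum was 387 on the orujo array and 314 on the olive array. The 5 measured neutrophil markers had a median log2 ratio of −0.03, with 2 positive and 3 negative, from Mpo at −0.40 to Lcn2 at 3.05. Another 3, S100a8, S100a9 and Csf3r, were above the floor on the orujo array only, at least 1.71-, 1.38- and 1.40-fold higher. Under a lower floor, at the 25th percentile, 9 markers were measured with a median of 0.34. The part of cell composition in the ratios above was not tested.

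Other differences between the arrays run alongside every ratio given here. Exocrine pancreas markers had a median log2 ratio of −2.78, from Ctrb1 at −3.71 to Cela1 at −1.58, over 9 measured genes. Control probe sets for 18S rRNA gave log2 ratios of 2.54 at the 5′ end, 2.48 in the middle and 0.34 at the 3′ end. Their part in the interferon-related values was not tested.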

How the data were processed

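Liver RNA was measured on Affymetrix arrays, 1 per diet, from about 8 µg of total RNA per the labels. The authors deposited probe set intensity values on a linear scale; the labels name no summary software, and detection calls were not used. Both deposited arrays had a trimmed mean intensity (2% cut at each end) of 100.05, so they had been brought to a common scale. The 64 control probe sets were set apart, and the arrays were scaled to equal trimmed means over the other 22626 probe sets (factors 1.001 and 0.999). Values under the floor (35.6, the 50th percentile of both arrays pooled) were raised to it before log2 was taken. A gene above the floor on 1 array has a bound against the floor. Platform annotation gave 1 symbol to 20380 probe sets, several to 691 and none to 1555; 20351 matched RefSeq by Entrez identifier, with 0 symbols changed. Each gene was read from its brightest probe set, the highest mean log2 value. Of the 31 members, 24 had a promoter window.

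The members and lists were chosen with earlier results of these data known. All members are named, and of the other interferon lists the 4 highest and 4 lowest ratios with the receptor chains and kinases, and the highest and lowest marker of each cell type list. Cell type markers above the floor on 1 array, apart from those of the exocrine pancreas, are named as well. Python 3.11.15, numpy 2.4.6, pandas 2.3.3, scipy 1.17.1 and statsmodels 0.14.6 were used. The calculation was tested on simulated data. The planted changes were larger than the ratio of any measured member and lay in genes brighter than most members, so small ratios at low signal were not covered. The number of arrays limits the precision.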

Additional observations from a re-analysis of the deposited data

How the results depend on the processing

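Alternatives changed the scaling (none, median centring, quantile, loess), the floor (25th or 75th percentile in place of the 50th), the log scale (log2 of value plus floor), the reading of a gene (mean of its probe sets) or the probe sets used (none marked as matching several transcripts). No paired analysis was possible because there was 1 array per diet, and no array could be left out for the same reason. Over these alternatives, the median log2 ratio of the interferon gamma targets ranged from −0.13 to −0.07. The higher floor left 5 measured members. With it, the median of all members was 0.041 and that of the type I targets, over 2 genes, 0.19. The difference (interferon gamma minus type I) was −0.31, from 3 and 2 genes. These values moved past a noise limit set from the gene counts of the main setting, and did so under no other alternative. Medians of so few genes have more noise than that limit allows, so the moves are not shown to exceed noise. The count of members at least 1.5-fold higher, 0 in the report, was 2 of 23 measured under the lower floor and 1 of 26 with log2(value + floor). Over all genes, 17.1% of 9448 and 4.99% of 12393 passed 1.5-fold in either direction under these settings. The count at least 1.5-fold lower, which was Ifit1 alone, was 0 with quantile normalization, loess, the higher floor or log2(value + floor). Of all measured genes, 11.1%, 11.1%, 9.63% and 4.99% passed 1.5-fold in either direction under these settings. The member counts are for 1 direction and the shares for both, so they cannot be compared directly. Shares in 1 direction were not computed under the alternatives. The cause of each change in the counts was not tested. The log2 ratio of a single member moved by less than the noise of 1 probe set in 149 of 149 comparisons, and Ifit1 ranged from −0.62 to −0.36. Most of these comparisons could not fail, so the count is no measure of stability. A changed floor leaves the ratio of a measured gene as it was. No scaling and median centring shift every gene by the same small amount. Averaging or removing probe sets alters only members read by several. Entering genes above the floor on 1 array at their bound, added after seeing the data, could not move the medians: no type I target has a bound, and the interferon gamma targets have 1 on either side. Among the other lists, 68 of 72 medians moved by less than a noise limit set from the gene counts of the main setting. The others were hepatocyte markers under quantile normalization (0.047) and neutrophil markers under the lower floor (0.34). Exocrine pancreas markers moved further under the higher floor (−2.51) and with log2(value + floor) (−2.30). Members were above the floor on both arrays more often than genes in all, 18 of 26 with a probe set against 6640 of 12393. Many were dim all the same: 14 of the 18 had a mean signal under 142.5, against 3800 of the 6640.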
